A study of Mus musculus with 9 samples.

Results

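The VEGF ligands and receptors are 9 mouse genes taken by symbol from the deposited gene table: the ligands Vegfa, Vegfb, Vegfc and Pgf, the receptors Flt1, Kdr and Flt4, and the co-receptors Nrp1 and Nrp2. They are 9 of the 17565 genes in that table, and each symbol was present in it. RNA-seq was done on MS1 cells, a mouse endothelial line that the labels place in the pancreas. Control cells carried the lentiviral vector pCDH-puro, TAZ4A cells carried pCDH-TAZS4A and TAZ-CAMTA1 cells carried pCDH-TAZ-CAMTA1, each as stably expressing cells and each in 3 libraries. TAZ is the transcriptional coactivator encoded by Wwtr1, TAZ4A is a form named for serine-to-alanine substitutions, and TAZ-CAMTA1 is the fusion protein of most epithelioid hemangioendotheliomas, a vascular tumour. The labels do not give a promoter, clones, a treatment or a time point, and they do not say that the libraries came from separate cultures, so p-values measure a spread between libraries that may be technical.

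VEGF ligands are secreted dimers that bind receptor tyrosine kinases on endothelial cells. VEGFA binds KDR (VEGFR2), the main signalling receptor for endothelial growth and permeability, and binds FLT1 (VEGFR1) more tightly. FLT1 also receives VEGFB and PGF, and its soluble form, which lacks the membrane and kinase parts, acts as a decoy. VEGFC and VEGFD act through FLT4 (VEGFR3), the receptor known for lymphatic growth, and the neuropilins NRP1 and NRP2 are co-receptors that also bind semaphorins.

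Read depth was 21966004 to 34224715 reads assigned to genes per library. Endothelial markers were present in each group, with 15 of 16 at 0.5 CPM or more. Their summed levels were 12835 to 13010 CPM in control, 8254 to 8552 in TAZ4A cells and 13081 to 13720 in TAZ-CAMTA1. The marker below 0.5 CPM in TAZ4A was Cldn5, which encodes a tight junction protein, at 0. Control and TAZ-CAMTA1 each had a marker below 0.5 CPM as well, so this is not particular to TAZ4A, and no change of Cldn5 is read from it. Of the 15 markers tested, 10 fell and 1 rose in TAZ4A against control by the limma test described below. Without TAZ-CAMTA1 replicate 2 these counts were 14 and 1. Between the TAZ groups 12 were higher and 0 lower in TAZ-CAMTA1, and 13 and 0 without that library. Over all tested genes 11.7% fell and 13.2% rose in TAZ4A, and 15.3% and 16.8% in TAZ-CAMTA1. Between the TAZ groups 19.4% were higher and 18.5% lower. In the fit without that library 58.7% were called in TAZ4A, 60.9% in TAZ-CAMTA1 and 63.0% between them. Fibroblast and mural markers (11 genes) summed to 5.53 to 6.83 CPM in control, 16.4 to 17.8 in TAZ4A and 10.9 to 16.9 in TAZ-CAMTA1. Of 6 tested, 5 rose in TAZ4A and 3 in TAZ-CAMTA1, and 0 fell. Of 5 tested without TAZ-CAMTA1 replicate 2, 5 rose in TAZ4A and 3 in TAZ-CAMTA1, and 0 fell. Lymphatic markers summed over 4 genes to 154 to 168, 228 to 238 and 258 to 325 CPM. Of 3 tested, 1 rose and 0 fell in TAZ4A, and 1 rose and 2 fell in TAZ-CAMTA1, where Prox1 was at 0. Without TAZ-CAMTA1 replicate 2, 2 rose and 0 fell in TAZ4A, and 1 rose and 2 fell in TAZ-CAMTA1. Leukocyte markers summed to 396 to 713 CPM over 7 genes, of which 1 or 2 reached 0.5 CPM in a group, and epithelial and islet markers to 20.8 to 49.6 CPM over 6. The part of these marker levels in the results that follow was not tested. Wwtr1 was at 536 to 570 CPM in control, 319 to 335 in TAZ4A cells, and 492, 328 and 491 in TAZ-CAMTA1 replicates 1 to 3, and Camta1 was at 3.41 to 5.11, 4.74 to 5.20 and 12.5 to 13.5 CPM. The labels do not give the sequence of the constructs, so these rows do not measure them.

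The library TAZ-CAMTA1 replicate 2 stood apart. Its log2 values correlated with those of its group mates at 0.962 and 0.963, whereas other pairs within a group were at 0.997 or higher. Its junction reads lay towards the 3′ end in 4 of the 5 genes examined. In Flt1 they rose to a peak at junction 12 of 29, the last junction of the soluble form. In Kdr, the mean reads per junction over the 9 most 3′ of 29 junctions was 6.65 times that over the 9 most 5′ in this library, against 1.44 to 1.87 times in the other 8. In Flt4 the same ratio was 7.89 against 1.52 to 1.77, in Nrp1 2.63 against 1.07 to 1.67 over 5 junctions at each end, and in Nrp2 1.73 against 0.93 to 1.15. In Flt1 this ratio was lower, at 0.31 against 0.55 to 0.81. The share of Flt1 reads there was 0.72% at junction 1, 15.0% at junction 12 and 0.54% at junction 13. The limma results of the 9 genes, the splice measures and the list counts are given with and without this library. Without it, the remaining TAZ-CAMTA1 pair is assumed to vary like the other groups.

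**Figure D1:**
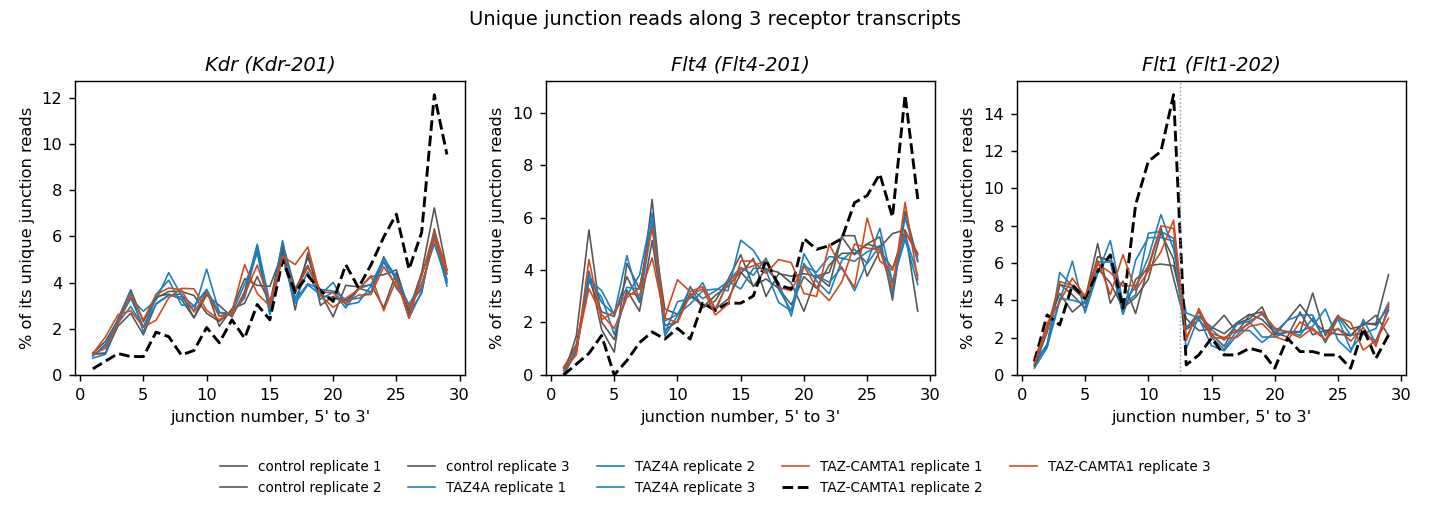
Share of each library's unique junction reads (percent, vertical axis) at each junction of the transcripts Kdr-201, Flt4-201 and Flt1-202, numbered from the 5′ end (horizontal axis), with 1 line per library coloured by group and TAZ-CAMTA1 replicate 2 dashed in black. The dashed line is low at the 5′ end and high at the 3′ end of Kdr and Flt4, and in Flt1 it peaks at 15.0% at junction 12 and drops to 0.54% at junction 13, beyond the dotted line after the last junction of the soluble form.

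The transcript sequences that carry the splice measurements are shown here first, from the GENCODE vM21 models (GRCm38, which is mm10), 5′ to 3′, both on the minus strand. In Flt1, exon 13 either splices on, as in the full-length transcript Flt1-202 of 30 exons, or is read through into the intron, as in the soluble transcript Flt1-203 of 13 exons. The lower-case letters are the last 30 bases of exon 13 that both forms share (chr5:147639225-147639254), and the capitals are the next 30 bases, which are the start of exon 14 in the full-length form (chr5:147634494-147634523) and intronic-side coding sequence in the soluble form (chr5:147639195-147639224).
Flt1-202, full-length: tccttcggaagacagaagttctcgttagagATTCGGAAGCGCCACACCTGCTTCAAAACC
Flt1-203, soluble: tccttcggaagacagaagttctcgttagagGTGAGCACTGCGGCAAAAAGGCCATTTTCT

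In Vegfa, exon 5 joins the last exon directly, or enters exon 7, or enters exon 6, and the exons between carry the basic, heparin-binding part of the protein. The lower-case letters are the last 30 bases of exon 5 (chr17:46024065-46024094), and the capitals are the first 30 bases of the exon it joined: the last exon in Vegfa-201 (chr17:46018850-46018879), exon 7 in Vegfa-202 (chr17:46021093-46021122) and exon 6 in Vegfa-207 (chr17:46022319-46022348).
Vegfa-201, exon 5 to the last exon: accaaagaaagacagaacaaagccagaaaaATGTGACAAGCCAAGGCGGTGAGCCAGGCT
Vegfa-202, exon 5 to exon 7: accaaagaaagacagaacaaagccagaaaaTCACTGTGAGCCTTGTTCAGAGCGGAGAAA
Vegfa-207, exon 5 to exon 6: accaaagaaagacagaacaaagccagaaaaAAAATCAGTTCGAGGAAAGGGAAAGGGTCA

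Both TAZ constructs went with more Vegfa RNA, more Nrp2 RNA and less Nrp1 RNA than in control, while Pgf moved in opposite directions, down in TAZ4A and up in TAZ-CAMTA1. Values are deposited CPM, reads per gene scaled by a factor for each library, and their sums differ between libraries. Calls are from limma on log2(CPM + 0.5) across all genes that reached 0.5 CPM in 3 or more libraries, at an adjusted p under 0.05. Of the 9 genes 8 passed that filter, and Vegfc did not. In TAZ4A against control 2 of the 8 rose and 2 fell, where 24.9% of the 12350 genes tested were called, 13.2% up and 11.7% down. In TAZ-CAMTA1 against control 4 rose and 1 fell, with 32.1% of all tested genes called, 16.8% up and 15.3% down. In TAZ-CAMTA1 against TAZ4A 2 were higher and 0 lower, with 37.9% called, 19.4% up and 18.5% down. Most genes were called in the fit without TAZ-CAMTA1 replicate 2. There 3 of the 8 rose and 5 fell in TAZ4A against control, beside 58.7% of 12255 genes called (28.1% up, 30.6% down). In TAZ-CAMTA1 against control 5 rose and 2 fell, beside 60.9% (28.3% up, 32.6% down), and against TAZ4A 6 were higher and 1 lower, beside 63.0% (30.5% up, 32.5% down). Each group enters 2 of the 3 comparisons, so they share samples. The groups also share 1 estimate of spread per gene. TAZ-CAMTA1 replicate 2 therefore enters the SE of TAZ4A against control, a comparison it is not in. There the log2 fold changes were the same with and without it, and each SE was smaller without it. The SE went from 0.28 to 0.04 for Nrp2, 0.18 to 0.05 for Nrp1 and 0.14 to 0.05 for Pgf. A call lost or not made there need not mean a wide spread within those groups.

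**Figure D2:**
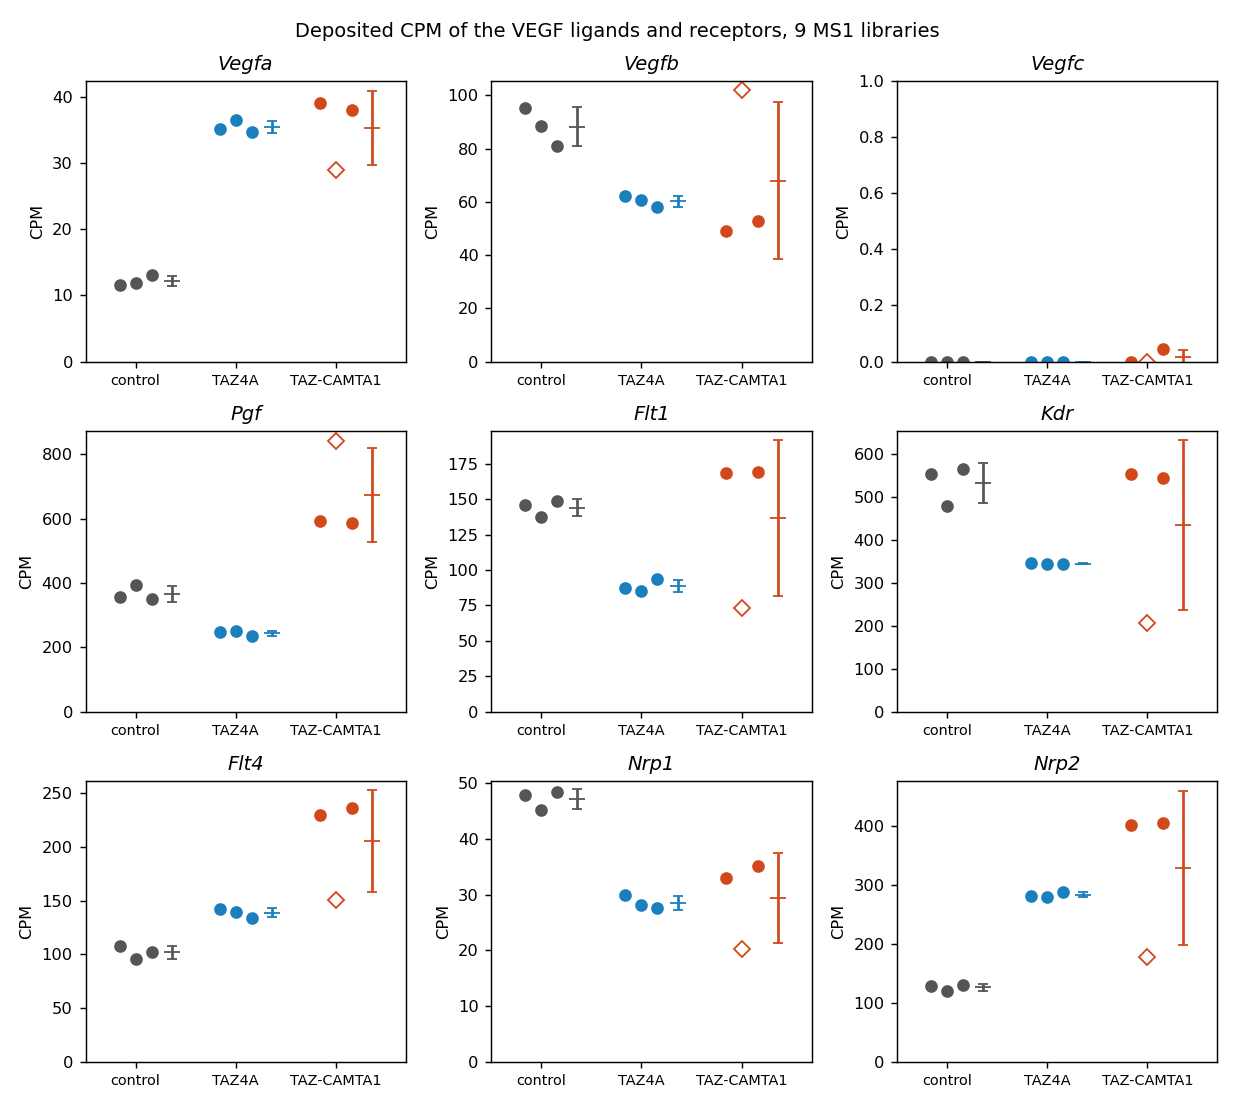
Deposited CPM (vertical axis, from 0) of the 9 genes in each of the 9 libraries by group, with the group mean and SD beside the points; the open diamond is TAZ-CAMTA1 replicate 2. All 3 TAZ4A and all 3 TAZ-CAMTA1 libraries sit above control for Vegfa, Flt4 and Nrp2 and below it for Nrp1, and the diamond lies apart from its group in Vegfa, Vegfb, Pgf, Flt1, Kdr, Flt4, Nrp1 and Nrp2.

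Among the ligands, Vegfa (ENSMUSG00000023951.17, chr17:46016993-46032369, minus strand) is the principal growth factor for endothelial cells. It was at 11.6, 11.9 and 13.04 CPM in control, 35.1, 36.5 and 34.7 in TAZ4A cells, and 39.0, 28.9 and 38.0 in TAZ-CAMTA1. Neither TAZ group overlapped control, and the lowest of the 6 TAZ libraries was TAZ-CAMTA1 replicate 2. The rise was 2.84-fold in TAZ4A (log2 fold change 1.50, SE 0.12, limma adjusted p = 3.4e-05) and 2.80-fold in TAZ-CAMTA1 (1.49, SE 0.12, adjusted p = 5.6e-05, or 1.62 without replicate 2). Both calls held when each of the 9 libraries was left out in turn. Between the TAZ groups the log2 difference was -0.02, with a 95% interval from -0.29 to 0.25 and limma adjusted p = 0.92, and without replicate 2 it was 0.12 (interval -0.02 to 0.26, adjusted p = 0.13).

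Junction reads, counted by splice junction and not by gene, were also higher in each TAZ library than in control for Vegfa. Over its annotated introns there were 6.64 ± 0.68 unique junction reads per 1000000 of the library in control, 19.5 ± 1.6 in TAZ4A cells and 17.3 ± 3.4 in TAZ-CAMTA1 (SD, n = 3), or 19.2 without replicate 2. The direct joining of exon 5 to the last exon, the Vegfa-201 sequence above, took 9 of 12, 11 of 18 and 9 of 16 exon 5 junction reads in the control libraries. In TAZ4A it took 22 of 40, 36 of 52 and 25 of 46, and in TAZ-CAMTA1 26 of 44, 15 of 31 and 19 of 34. Exon 7 took nearly all of the rest, and exon 6, as in Vegfa-207, received 0 to 2 reads per library. Mean shares of the direct form were 64.1% ± 9.7 in control, 59.5% ± 8.4 in TAZ4A cells and 54.5% ± 5.5 in TAZ-CAMTA1 (SD, n = 3), or 57.5% without replicate 2, and the groups overlapped. In the exact permutation test (two-sided, 3 against 3, smallest possible p 0.1) p was 0.5, 0.2 and 0.6 for the 3 comparisons, each 0.6 or higher after adjustment over the 15 splice comparisons made. Single shares were imprecise, with a 95% Wilson interval from 33.2% to 76.9% in control replicate 3, which covers counting error only.

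Vegfb (ENSMUSG00000024962.13, chr19:6982473-6987651), a ligand of FLT1 linked to fatty acid handling, was at 95.4, 88.6 and 80.8 CPM in control, 62.1, 60.6 and 58.0 in TAZ4A cells, and 49.0, 102.2 and 52.9 in TAZ-CAMTA1. The TAZ4A libraries were all below control, and TAZ-CAMTA1 held both the lowest value and, in replicate 2, the highest. The log2 fold changes of -0.55 (SE 0.24) in TAZ4A and -0.45 (SE 0.24) in TAZ-CAMTA1 did not pass (limma adjusted p = 0.15 and 0.19). Without replicate 2 they were -0.55 and -0.79 and passed (limma adjusted p = 7.3e-07 and 4.9e-08), and TAZ-CAMTA1 was then lower than TAZ4A by 0.24 on the log2 scale, a log2 fold change of -0.24 (adjusted p = 0.0049). Vegfb makes a longer, diffusible form and a shorter, heparin-binding form from alternative acceptors of 1 intron. The longer form took 51.7% ± 4.0, 51.0% ± 3.4 and 49.9% ± 2.2 of the reads at that choice in control, TAZ4A and TAZ-CAMTA1 (SD, n = 3), with exact permutation p = 0.6 to 0.9, and 49.2% in TAZ-CAMTA1 without replicate 2.

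Pgf (ENSMUSG00000004791.7, chr12:85166635-85177790), placental growth factor, a ligand of FLT1 and not of KDR, separated the 2 constructs. It was at 356, 394 and 350 CPM in control, 247, 250 and 235 in TAZ4A cells, and 594, 842 and 586 in TAZ-CAMTA1. No 2 groups overlapped, TAZ4A being lowest and TAZ-CAMTA1 highest. Pgf fell to 0.668-fold in TAZ4A (log2 fold change -0.58, SE 0.14, limma adjusted p = 0.015) and rose 1.81-fold in TAZ-CAMTA1 (0.86, SE 0.14, adjusted p = 0.0020, or 0.69 without replicate 2). TAZ-CAMTA1 exceeded TAZ4A 2.72-fold (1.44, SE 0.14, limma adjusted p = 9.4e-05), and without replicate 2 by 2.41-fold. The 2 calls in TAZ-CAMTA1 held in all 9 leave-one-out fits, while the fall in TAZ4A was lost without control replicate 2, TAZ4A replicate 1 or TAZ4A replicate 3 (limma adjusted p = 0.053 to 0.064). Its junction reads were 422 ± 67, 328 ± 8 and 768 ± 149 per 1000000 in the 3 groups (SD, n = 3), the last being 699 without replicate 2. Reads at junction 4 over junction 3 were 1.01 in control replicate 1 and 1.00 in TAZ-CAMTA1 replicate 3, against 1.76 to 2.48 elsewhere. Both libraries had the lowest Pgf junction reads of their group, at 346 and 608 per 1000000. The part of this difference in the sums was not tested.

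Vegfc (ENSMUSG00000031520.6, chr8:54077606-54187096), the lymphatic growth factor, had 0 reads in 8 libraries and 1 read in TAZ-CAMTA1 replicate 3, and no junction read in any. A count of 0 allows up to 3 reads, which is 0.0878 to 0.139 CPM depending on the library. Its relative Vegfd (Figf in the table), the other ligand of FLT4, was at 0.603 ± 0.121 CPM in control, 2.53 ± 0.24 in TAZ4A cells and 0.311 ± 0.099 in TAZ-CAMTA1 (SD, n = 3). It was lower in TAZ-CAMTA1 than in TAZ4A, with a log2 fold change of -1.90 (SE 0.13, limma adjusted p = 1.6e-05), or -1.80 without TAZ-CAMTA1 replicate 2.

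Among the receptors, Kdr (ENSMUSG00000062960.10, chr5:75932827-75978458) was the most abundant. It was at 554, 480 and 566 CPM in control, 347, 345 and 344 in TAZ4A cells, and 555, 207 and 544 in TAZ-CAMTA1. TAZ4A lay below control in all 3 libraries, and TAZ-CAMTA1 replicates 1 and 3 lay within the control range while replicate 2 was the lowest of the 9. With all libraries no Kdr comparison passed: the log2 fold change was -0.62 (SE 0.33, limma adjusted p = 0.23) in TAZ4A, -0.42 (adjusted p = 0.36) in TAZ-CAMTA1 and 0.20 (adjusted p = 0.65) between them. Without replicate 2 the TAZ4A value, still -0.62, passed (SE 0.05, limma adjusted p = 3.7e-08), and TAZ-CAMTA1 differed from control by 0.05 with a 95% interval from -0.08 to 0.17 (adjusted p = 0.52). In that fit Kdr was 1.59-fold higher in TAZ-CAMTA1 than in TAZ4A (log2 0.67, limma adjusted p = 6.3e-08).

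Flt1 (ENSMUSG00000029648.13, chr5:147561604-147726011), the high-affinity receptor and decoy, was at 146, 137 and 149 CPM in control, 87.1, 85.3 and 93.8 in TAZ4A cells, and 169, 73.3 and 169 in TAZ-CAMTA1. Again TAZ4A lay below control without overlap, TAZ-CAMTA1 replicates 1 and 3 were the highest of all, and replicate 2 was the lowest. The log2 fold changes were -0.70 (SE 0.28, limma adjusted p = 0.12) in TAZ4A, -0.17 (adjusted p = 0.67) in TAZ-CAMTA1 and 0.53 (adjusted p = 0.18) between them. Without replicate 2 they were -0.70 (limma adjusted p = 3.1e-09), 0.23 (adjusted p = 0.0017) and 0.93 (adjusted p = 4.1e-10), and the sign in TAZ-CAMTA1 had changed.

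Junction reads divided Flt1 into its 5′ part, shared by the soluble and full-length forms, and the part after exon 13, which belongs to the full-length form. Mean reads per junction over the 12 shared junctions were 1.61, 1.55 and 1.70 times those over the 17 later junctions in control, 2.00, 1.93 and 2.04 times in TAZ4A cells, and 2.13, 5.24 and 2.00 times in TAZ-CAMTA1. All 6 TAZ libraries were above the 3 control libraries, and replicate 2 of TAZ-CAMTA1 was far above the rest. The ratio also depends on how evenly reads cover the 2 forms. Coverage was uneven in replicate 2 as described above, and its part in the ratio was not tested. The difference from control was 0.37 in TAZ4A and 1.50 in TAZ-CAMTA1, each with exact permutation p = 0.1, the smallest that 3 against 3 allows, and 0.5 after adjustment over 15. Without replicate 2 the TAZ-CAMTA1 difference was 0.44 (exact permutation p = 0.2, the smallest for 2 against 3), and between the TAZ groups it was 0.07. At the boundary itself, where the 2 printed sequences part, reads at junction 12 over junction 13 were 64 over 33, 97 over 38 and 89 over 44 in control and 73 over 36, 77 over 15 and 80 over 27 in TAZ4A. In TAZ-CAMTA1 they were 160 over 40, 84 over 3 and 112 over 25, so there TAZ-CAMTA1 lay above control and TAZ4A overlapped it (exact permutation p = 0.1 and 0.2). Without replicate 2 the mean ratio was 4.24 in TAZ-CAMTA1 against 2.17 in control (exact permutation p = 0.2).

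**Figure D3:**
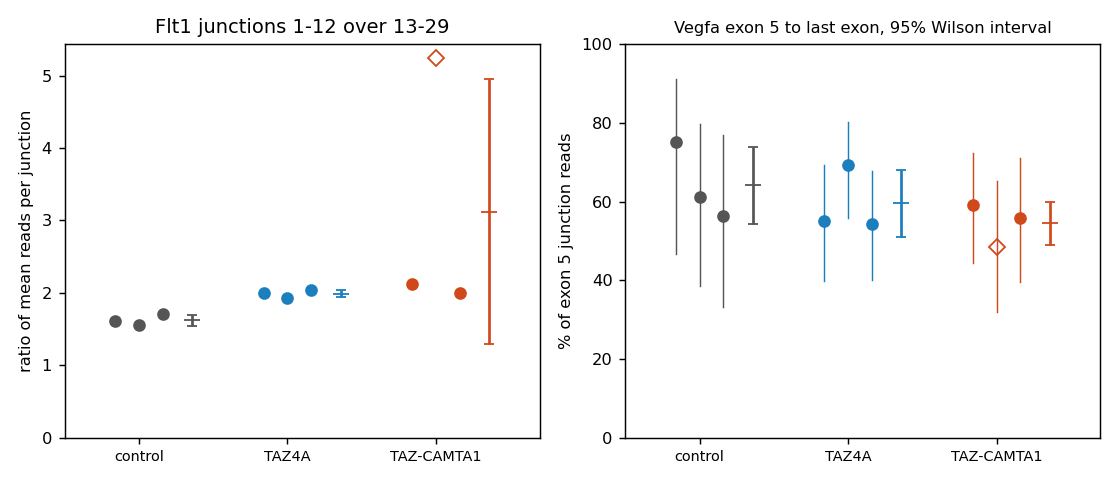
Left, the ratio of mean unique reads per junction over Flt1 junctions 1 to 12 to that over junctions 13 to 29 in each library, from 0; right, the percentage of Vegfa exon 5 junction reads that join the last exon, with a thin 95% Wilson interval for each library. Group means and SD stand beside the points and the open diamond is TAZ-CAMTA1 replicate 2: the Flt1 ratio is 1.55 to 1.70 in control and 1.93 or higher in the TAZ groups, whereas the Vegfa shares overlap.

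Flt4 (ENSMUSG00000020357.3, chr11:49609263-49652739) rose with the fusion. It was at 108, 96.0 and 102 CPM in control, 142, 140 and 134 in TAZ4A cells, and 229, 151 and 237 in TAZ-CAMTA1. No 2 groups overlapped, with control lowest and TAZ-CAMTA1 highest. It was 1.97-fold higher in TAZ-CAMTA1 than in control (log2 0.98, SE 0.16, limma adjusted p = 0.0022, or 1.19 without replicate 2), a call made in all 9 leave-one-out fits. The TAZ4A value of 0.44 (SE 0.16, limma adjusted p = 0.080) did not pass and did so without TAZ-CAMTA1 replicate 2 (adjusted p = 8.3e-07). TAZ-CAMTA1 exceeded TAZ4A 1.45-fold (0.54, limma adjusted p = 0.029), but the call was lost without any TAZ4A library or without TAZ-CAMTA1 replicate 1 or 3 (adjusted p = 0.074 to 0.094), and without replicate 2 the value was 0.75. Junction reads of Flt4 per 1000000 were 106 to 116 in control, 165 to 175 in TAZ4A cells, and 280.3, 98.3 and 259.04 in TAZ-CAMTA1, so by this measure replicate 2 lay below control and the other pair above both groups.

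Of the co-receptors, Nrp2 (ENSMUSG00000025969.15, chr1:62703285-62818695), which pairs with FLT4, was at 128, 119 and 131 CPM in control, 282, 280 and 288 in TAZ4A cells, and 402, 178 and 405 in TAZ-CAMTA1. All TAZ libraries exceeded control in CPM. In junction reads per 1000000 control was at 67.5 to 78.2, TAZ4A at 172 to 189, and TAZ-CAMTA1 at 257, 37.5 and 262, so there replicate 2 lay below control. By CPM it rose 2.24-fold in TAZ4A (log2 1.17, SE 0.28, limma adjusted p = 0.016) and 2.43-fold in TAZ-CAMTA1 (1.28, SE 0.28, adjusted p = 0.0087, or 3.19-fold without replicate 2). The call in TAZ4A was lost in 5 of 9 leave-one-out fits, without control replicate 1 or 2 or any TAZ4A library (limma adjusted p = 0.053 to 0.059), where the log2 fold change stayed between 1.13 and 1.19. Each of those fits kept TAZ-CAMTA1 replicate 2 in the shared estimate of spread. Between the TAZ groups the difference of 0.12 did not pass (95% interval -0.52 to 0.75, limma adjusted p = 0.76), and without replicate 2 it was 0.51 and passed (adjusted p = 1.6e-07). Transcripts with the alternative tail, Nrp2-201 and Nrp2-205, took 8.65% ± 4.11 of the reads at the tail choice in control, 11.3% ± 2.4 in TAZ4A cells and 9.95% ± 2.29 in TAZ-CAMTA1 (SD, n = 3), with exact permutation p = 0.4 to 0.6, and 10.6% in TAZ-CAMTA1 without replicate 2.

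Nrp1 (ENSMUSG00000025810.9, chr8:128358604-128503363), the partner of KDR and a receptor of class 3 semaphorins, moved the other way. It was at 48.0, 45.1 and 48.4 CPM in control, 30.0, 28.2 and 27.6 in TAZ4A cells, and 33.0, 20.2 and 35.2 in TAZ-CAMTA1. All TAZ libraries were below control, and the TAZ groups overlapped each other. It fell to 0.610-fold in TAZ4A (log2 -0.71, SE 0.18, limma adjusted p = 0.022) and to 0.612-fold in TAZ-CAMTA1 (-0.71, SE 0.18, adjusted p = 0.019, or -0.46 without replicate 2). The calls were lost without any 1 of the control libraries in both, and in TAZ4A also without any 1 of its own (limma adjusted p = 0.051 to 0.083). Between the TAZ groups the log2 difference was 0.00 (95% interval -0.42 to 0.42, limma adjusted p = 0.99), and 0.25 without replicate 2 (adjusted p = 0.0022).

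**Figure D4:**
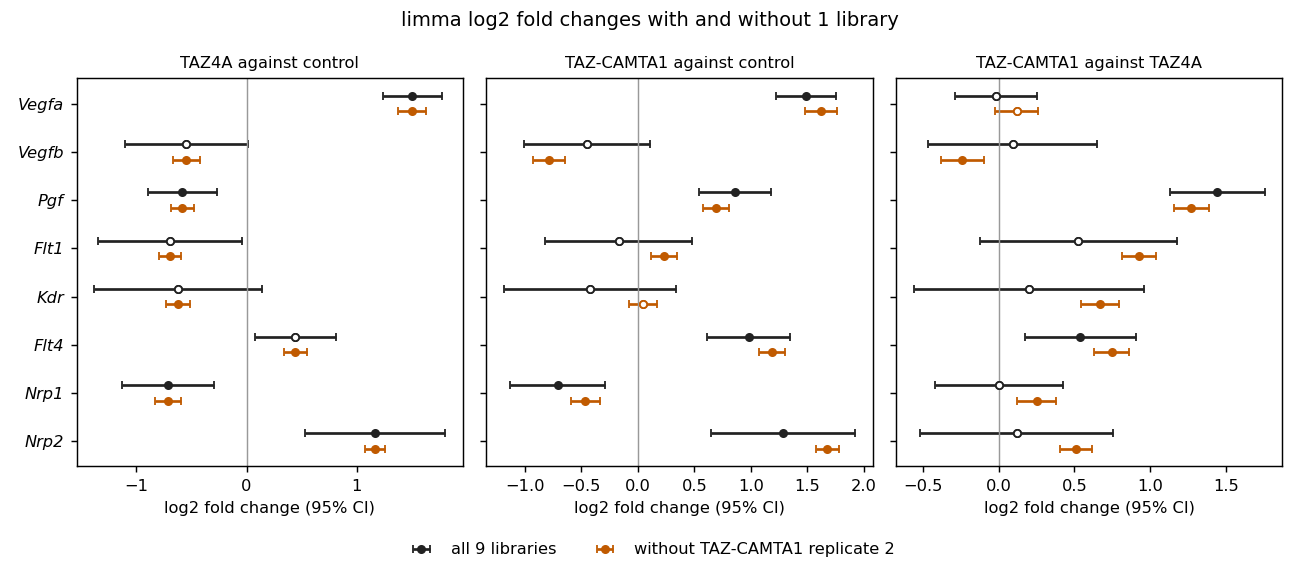
limma log2 fold changes (horizontal axis) with 95% intervals for the 8 tested genes in 3 comparisons, with all 9 libraries in black and without TAZ-CAMTA1 replicate 2 in orange; filled points have an adjusted p under 0.05. The orange intervals are narrower, and Flt1 in TAZ-CAMTA1 against control moves from -0.17 to 0.23.

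In the authors' deposited table of comparisons the same genes passed a false discovery rate of 0.05, and Flt1 as well in 2 comparisons. There Flt1 had a log2 fold change of -0.70 in TAZ4A against control (false discovery rate 0.021, authors' deposited table) and 0.63 in TAZ-CAMTA1 against TAZ4A (0.033, authors' deposited table).

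Levels of different genes were compared in deposited TPM, which is scaled for length. In control the order of mean TPM was Pgf 529, Kdr 238, Vegfb 167, Flt1 55.8, Flt4 42.5, Nrp2 37.8, Nrp1 19.4 and Vegfa 7.10, and neighbours overlapped only at Flt4 and Nrp2. Thus the FLT1 ligands Pgf and Vegfb were each more abundant per length than Flt1, while Vegfa RNA was the lowest of the detected genes. In TAZ4A the order was Pgf 366, Kdr 159, Vegfb 118, Nrp2 87.8, Flt4 59.9, Flt1 35.6, Vegfa 21.4 and Nrp1 12.2 TPM, with no overlap between neighbours, so Nrp2 and Flt4 stood above Flt1 and Vegfa above Nrp1. In TAZ-CAMTA1 the means were Pgf 922, Kdr 193, Vegfb 120, Nrp2 97.5, Flt4 83.9, Flt1 52.7, Vegfa 20.04 and Nrp1 11.9 TPM, and below Pgf neighbours overlapped except at Flt1 and Vegfa. Without replicate 2 the TAZ-CAMTA1 order was Pgf 876, Kdr 252, Nrp2 124, Flt4 99.8, Vegfb 99.3, Flt1 67.2, Vegfa 23.1 and Nrp1 14.4 TPM, with Vegfb below Nrp2 and Flt4.

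**Figure D5:**
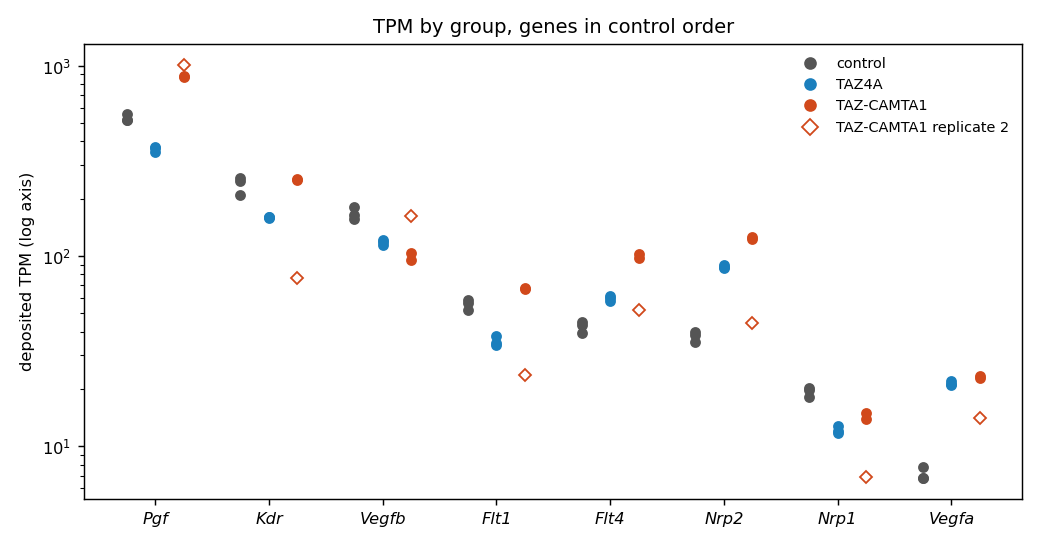
Deposited TPM (vertical axis, log scale) of the 8 detected genes in every library, ordered by the control mean; filled circles are coloured by group and the open diamond is TAZ-CAMTA1 replicate 2. Pgf is the highest gene in every group, at 529, 366 and 922 TPM on average, and Vegfa rises from the lowest place in control to above Nrp1 in the TAZ groups.

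The genes with the most similar profiles to Vegfa, Pgf, Vegfb, Flt1, Kdr, Nrp1 and Nrp2 were found among 10139 genes by the root mean square difference of centred log2(CPM + 0.5) values over the 9 libraries, which share libraries and depth. For Vegfa these were Col6a1, a collagen gene, at a difference of 0.10, then Pfkfb3, a glycolytic regulator, and Asb4. For Pgf they were Icam2, an endothelial adhesion molecule, at 0.07, Upp1 and Ly6c1. Dbi, Lamtor4 and Fth1, the ferritin heavy chain gene, were nearest to Vegfb, and Eogt, 9430020K01Rik and Prrg3 to Flt1. Gbp9, Arhgef12 and Tet3 were nearest to Kdr. Stard8, Nav1 and Hspa4l were nearest to Nrp1 at 0.06 to 0.08, and Syne1, Lonrf1 and Zfp516 to Nrp2 at 0.10 to 0.19. The profiles include TAZ-CAMTA1 replicate 2, the highest library for Vegfb and the lowest for Flt1, Kdr and Nrp1. Its part in these likenesses was not tested.

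The 250 bases before each RefSeq start site (GRCm38.p6) were searched on both strands for the TEAD letters GGAATG, the hypoxia-response letters ACGTG and the AP-1 letters TGANTCA. Among 11 windows of the 9 genes 0 held GGAATG, 1 held ACGTG (at a second, internal Vegfa start) and 0 held TGANTCA. Among all 32851 windows of that length 12.6%, 16.6% and 6.75% held them. These are matches of letters in short windows and show nothing of binding.

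Downstream of the receptors, kinases and adaptors of VEGF receptor signalling were counted in the same fit. Of 51 tested, 5 rose and 15 fell in TAZ4A (median log2 fold change -0.13, against -0.01 over all tested genes), and 9 rose and 9 fell in TAZ-CAMTA1 (median -0.10 against -0.03). Plcg2, a phospholipase C, fell in both, from 38.5 ± 1.0 CPM in control to 23.0 ± 1.3 in TAZ4A (log2 -0.73, limma adjusted p = 0.00014) and 24.5 ± 1.1 in TAZ-CAMTA1 (-0.64, adjusted p = 0.00035). Prkca, protein kinase C alpha, also fell in both, by 0.70 and 0.91 on the log2 scale (limma adjusted p = 0.028 and 0.0076). Pik3cd, a catalytic subunit of PI3 kinase, rose in both but stayed low, at 1.57 ± 0.36, 2.86 ± 0.08 and 3.82 ± 0.25 CPM (SD, n = 3). Mapk3, which encodes ERK1, was higher in TAZ-CAMTA1 than in TAZ4A (380 ± 51 against 202 ± 6 CPM, log2 0.90, limma adjusted p = 0.00027). Between the TAZ groups 8 of the 51 were higher and 5 lower in TAZ-CAMTA1. These counts stand beside 24.9%, 32.1% and 37.9% of all tested genes called in the 3 comparisons. In TAZ-CAMTA1 against control the count is near that share, and between the TAZ groups it is below it. Neither is a result about this list. Without TAZ-CAMTA1 replicate 2 the counts up and down were 14 and 26 in TAZ4A, 17 and 17 in TAZ-CAMTA1, and 21 and 11 between them, beside 58.7%, 60.9% and 63.0% of all tested genes called.

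Partners that hold, cleave or move VEGF and its receptors were called in both directions. Of 34 tested, 8 rose and 7 fell in TAZ4A cells and 9 rose and 4 fell in TAZ-CAMTA1, and 11 were higher and 10 lower in TAZ-CAMTA1 than in TAZ4A, beside 24.9%, 32.1% and 37.9% of all tested genes called in the 3 comparisons. The list medians were -0.06, 0.14 and 0.21 (log2), against -0.01, -0.03 and -0.02 over all tested genes. Mmp2, a matrix protease, rose in both, from 10.1 ± 0.3 CPM to 50.5 ± 1.3 and 43.1 ± 3.6 (limma adjusted p = 2.4e-07 and 1.1e-06). Sdc4, a heparan sulfate proteoglycan, was at 9.50 ± 1.06 CPM in control and rose to 38.2 ± 2.1 in TAZ4A (log2 1.96, limma adjusted p = 6.7e-06) and 53.1 ± 6.8 in TAZ-CAMTA1 (log2 2.42, adjusted p = 3.9e-06). Thbs1, the angiogenesis inhibitor thrombospondin 1, was at 795 ± 48, 2108 ± 19 and 834 ± 325 CPM, lower in TAZ-CAMTA1 than in TAZ4A by a log2 fold change of -1.43 (limma adjusted p = 0.0041). Axl, a receptor kinase, rose in TAZ4A from 0.328 ± 0.125 to 12.4 ± 0.4 CPM and was at 0.605 ± 0.049 in TAZ-CAMTA1. Itgb3, the beta 3 integrin, fell in TAZ4A and was higher in TAZ-CAMTA1 than there, at 277 ± 2, 165 ± 2 and 370 ± 76 CPM (SD, n = 3). The counts without TAZ-CAMTA1 replicate 2 were 14 up and 14 down, 15 up and 6 down, and 16 up and 12 down for the 3 comparisons in that order, beside 58.7%, 60.9% and 63.0% of all tested genes called.

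Semaphorins, which share the neuropilins with VEGF, included Sema3c, which was high in TAZ4A alone among the 3 groups. Of 15 semaphorins and plexins tested, 4 rose and 5 fell in TAZ4A, 5 rose and 1 fell in TAZ-CAMTA1, and 6 were higher and 3 lower in TAZ-CAMTA1 than in TAZ4A, beside 24.9%, 32.1% and 37.9% of all tested genes called in the 3 comparisons. Their medians were 0.25, 0.12 and 0.26 (log2), against -0.01, -0.03 and -0.02 over all tested genes. Sema3c, a secreted neuropilin ligand, was at 0.438 ± 0.184 CPM in control, 19.6 ± 1.5 in TAZ4A cells and 0.043 ± 0.037 in TAZ-CAMTA1 (SD, n = 3). It rose in TAZ4A by 4.44 on the log2(CPM + 0.5) scale (SE 0.15, limma adjusted p = 2.9e-07). Sema3a, the NRP1 ligand, also rose in TAZ4A, from 14.9 ± 1.5 to 34.9 ± 2.2 CPM (log2 1.20, limma adjusted p = 0.00080), and was at 20.9 ± 4.7 in TAZ-CAMTA1. Plxna4, a plexin that signals with neuropilins, fell in TAZ4A from 7.92 ± 0.97 to 2.52 ± 0.41 CPM (log2 -1.48, limma adjusted p = 0.0019). Leaving out TAZ-CAMTA1 replicate 2 gave 7 up and 6 down, 7 up and 2 down, and 7 up and 4 down, beside 58.7%, 60.9% and 63.0% of all tested genes called.

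Genes known to be induced by VEGF in endothelial cells did not move as 1 group. Of 27 tested, 6 rose and 13 fell in TAZ4A (median log2 fold change -0.37) and 8 rose and 10 fell in TAZ-CAMTA1 (median 0.01), and between the TAZ groups 9 were higher and 6 lower, beside 24.9%, 32.1% and 37.9% of all tested genes called in the 3 comparisons. The nuclear receptor Nr4a1 fell in both, at 99.4 ± 2.3, 30.0 ± 1.1 and 23.8 ± 1.9 CPM, and its relative Nr4a2 at 12.7 ± 0.7, 2.74 ± 0.28 and 1.09 ± 0.33. Ptgs2, the inducible cyclooxygenase, fell in TAZ-CAMTA1 from 59.9 ± 3.8 to 6.65 ± 2.59 CPM (log2 -3.16, limma adjusted p = 6.0e-05) and was at 86.7 ± 3.1 in TAZ4A. Egr1, an immediate early transcription factor, was at 225 ± 8, 173 ± 1 and 588 ± 43 CPM and higher in TAZ-CAMTA1 than in TAZ4A by 1.76 on the log2 scale (limma adjusted p = 7.8e-07). Stc1, stanniocalcin 1, rose in TAZ-CAMTA1 from 16.4 ± 0.8 to 77.3 ± 21.9 CPM (log2 2.16, limma adjusted p = 9.6e-05). With TAZ-CAMTA1 replicate 2 left out, 10 rose and 14 fell in TAZ4A, 11 rose and 12 fell in TAZ-CAMTA1, and 14 were higher and 11 lower between them, beside 58.7%, 60.9% and 63.0% of all tested genes called.

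Vegfa is one of the genes known to respond to hypoxia. Of 21 other hypoxia target genes tested, 17 rose and 0 fell in TAZ-CAMTA1 against control (median log2 fold change 0.97, against -0.03 over all tested genes; 16.8% of all tested genes rose), and 18 rose and 1 fell without replicate 2. In TAZ4A 8 of the 21 rose and 3 fell (median 0.36 against -0.01), where 13.2% of all tested genes rose and 11.7% fell. Between the TAZ groups 8 were higher and 1 lower in TAZ-CAMTA1, where 19.4% of all tested genes were higher and 18.5% lower. Without replicate 2 these counts were 10 and 5, and 13 and 2. In that fit 58.7%, 60.9% and 63.0% of all tested genes were called in the 3 comparisons. Bnip3, a mitophagy gene, was at 17.7 ± 1.0, 33.0 ± 1.4 and 102 ± 10 CPM (log2 2.50 in TAZ-CAMTA1, limma adjusted p = 9.7e-07), and Angptl4, an angiopoietin-like factor, at 16.8 ± 1.6, 57.4 ± 2.5 and 87.8 ± 20.9. Hk2, hexokinase 2, was highest in TAZ4A, at 5.51 ± 0.75, 34.6 ± 1.4 and 19.1 ± 3.0 CPM. Ndrg1, a stress-response gene, was at 826 ± 8, 348 ± 4 and 997 ± 54 CPM and fell in TAZ4A (log2 -1.25, limma adjusted p = 2.9e-06). The relation of these genes to the Vegfa values was not tested.

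The oxygen-sensing genes themselves and other regulators of Vegfa showed 2 rises and 4 falls of 26 tested in TAZ4A cells and 6 rises and 7 falls in TAZ-CAMTA1, and 7 were higher and 5 lower in TAZ-CAMTA1 than in TAZ4A. With 24.9% of all tested genes called in TAZ4A, the count there is near the background and is no result about this list; in the other comparisons 32.1% and 37.9% were called. The list medians were -0.07, -0.35 and -0.17 (log2), against -0.01, -0.03 and -0.02 over all tested genes. Epas1, which encodes HIF-2 alpha, fell in TAZ4A from 60.4 ± 2.3 to 21.4 ± 1.0 CPM (log2 -1.47, limma adjusted p = 3.5e-05) and was at 40.6 ± 6.5 in TAZ-CAMTA1. The prolyl hydroxylase genes Egln1 and Egln3 rose in TAZ-CAMTA1, from 46.4 ± 3.1 to 110 ± 14 and from 268 ± 0.5 to 488 ± 3 CPM (limma adjusted p = 6.2e-05 and 2.3e-05). Arnt2, a partner of HIF proteins, was at 4.31 ± 0.17, 8.35 ± 0.14 and 1.37 ± 0.43 CPM (SD, n = 3). Without TAZ-CAMTA1 replicate 2, 9 rose and 10 fell in TAZ4A, 8 rose and 16 fell in TAZ-CAMTA1, and 8 were higher and 11 lower between the TAZ groups, beside 58.7%, 60.9% and 63.0% of all tested genes called.

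Endothelial transcription factors include several that act on the receptor genes. Of 24 tested, 2 rose and 8 fell in TAZ4A (median -0.27), 4 rose and 6 fell in TAZ-CAMTA1 (median -0.08), and 11 were higher and 3 lower in TAZ-CAMTA1 than in TAZ4A (median 0.19). Over all tested genes 13.2% rose and 11.7% fell in TAZ4A, 16.8% and 15.3% in TAZ-CAMTA1, and 19.4% were higher and 18.5% lower between them. Sox18, a factor of vascular and lymphatic development, was at 111 ± 11, 23.5 ± 0.5 and 150 ± 31 CPM and fell in TAZ4A (log2 -2.22, limma adjusted p = 9.9e-06). Its relative Sox7 rose in both, at 148 ± 10, 205 ± 2 and 352 ± 40 CPM (limma adjusted p = 0.0073 and 4.5e-05). Without TAZ-CAMTA1 replicate 2 the factors numbered 6 up and 13 down, 10 up and 10 down, and 15 up and 4 down, beside 58.7%, 60.9% and 63.0% of all tested genes called. Of 19 related growth factors and receptors tested, 8 rose and 4 fell in TAZ4A cells and 9 rose and 2 fell in TAZ-CAMTA1, and 8 were higher and 3 lower in TAZ-CAMTA1 than in TAZ4A. Their medians were 0.47, 0.47 and 0.24 (log2), against -0.01, -0.03 and -0.02 over all tested genes. Of all tested genes 24.9%, 32.1% and 37.9% were called in the 3 comparisons. Angpt2, the TIE2 ligand, was at 1031 ± 12, 475 ± 5 and 775 ± 96 CPM, and the receptor kinase Kit at 595 ± 24, 198 ± 4 and 418 ± 129. Csf1, the macrophage growth factor, rose in TAZ4A from 60.4 ± 0.9 to 455 ± 9 CPM and was at 173 ± 8 in TAZ-CAMTA1 (SD, n = 3). Of 18 growth factor genes tested without TAZ-CAMTA1 replicate 2, the counts were 10 up and 6 down, 12 up and 2 down, and 10 up and 5 down. These stand beside the same 58.7%, 60.9% and 63.0% of all tested genes called. Values of single list genes are from all libraries; in the fit without replicate 2 each kept its direction and an adjusted p under 0.05 in the comparison it was chosen for. In these bulk samples fewer cells of a type and less RNA per cell cannot be told apart.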

How the data were processed

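Per the labels, poly-A RNA of 9 MS1 libraries was sequenced on an Illumina HiSeq after a stranded kit. Per the submitters' processing notes, bcl2fastq, FastQC, STAR, featureCounts and edgeR were used on mm10; versions, settings and the use of strand were not given in the sources used here. The gene table is a deposited signal that the authors name CPM, and 100% of its values came out as whole reads within a tolerance of 0.01. The design assumed CPM, and since the sums differ between libraries the values were entered as signal and the test was kept. The authors' deposited TPM gave levels between genes, and the authors' deposited table supplied log2 fold changes with false discovery rates (p-values), quoted as theirs. STAR's deposited junction tables give counts of unique and multiply mapped reads per intron, with the maximum overhang as a score; 6410070 to 9889541 unique junction reads per library were present.

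The test was limma-trend (limma 3.58.1, R 4.3.3, robust) on log2(CPM + 0.5), two-sided, with all 9 libraries in 1 fit of 6 residual degrees of freedom, genes at 0.5 CPM or more in at least 3 libraries, and Benjamini-Hochberg adjustment over all genes tested; the pseudocount shrinks the folds of low genes. Splice measures used the exact permutation test. The limma test was checked on simulated counts, and the permutation test on a fixed set of numbers. The limma median SE of 0.135 (log2) describes the precision. Named genes are the 9 members, up to 2 called genes per list, comparison and direction with the largest change and at least 1 CPM, and the 3 nearest profiles per member. The nearest profiles to Flt4 are not reported here. The members and lists were chosen with earlier results of these data known. Other settings were the pseudocount, filter, scaling, TPM, the GENCODE vM4 table, samples in the fit, a replicate block, edgeR 4.0.16, DESeq2 1.42.0, library weights and leaving out libraries. The deposited transcript tables were not used here.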

Additional observations from a re-analysis of the deposited data

How the results depend on the processing

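The rises of Vegfa, Nrp2 and Flt4 and the fall of Nrp1 against control, and the difference in Pgf between the constructs, had the same direction under every setting tried. The number of called members and of called genes depended mostly on TAZ-CAMTA1 replicate 2, whose limma quality weight was 0.0287. With library quality weights 8, 7 and 7 of the 8 tested members were called in the first (TAZ4A against control), second (TAZ-CAMTA1 against control) and last comparison (between the TAZ groups), and 7432, 7255 and 8272 genes. With only the 6 samples compared the members were 8 and 4 in the first and second comparison, with 7233 and 2445 of 12350 genes. In the last comparison 1 member was called with only those samples, and 1 with deposited TPM. The counts over all genes for these last 2 are not given here, so neither is a result about the members. Leaving out single libraries gave 1 to 8 called members in the first comparison and 1 to 7 in the last, and 1935 to 7193, 2612 to 7458 and 3078 to 7721 called genes; the highest counts are those without TAZ-CAMTA1 replicate 2. Without control replicate 1 and TAZ-CAMTA1 replicate 3 together, an alternative chosen after seeing the data because reads at Pgf junction 4 over junction 3 were 1.01 and 1.00 there against 1.76 to 2.48 elsewhere, 2 and 1 members were called in the first and last comparison and 2378 genes in the second. Those member and gene counts are of different comparisons, so they cannot be set against each other.

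Directions that changed were those of comparisons that did not pass with all libraries. Of these, Flt1 in TAZ-CAMTA1 against control passed in the new direction with quality weights and without TAZ-CAMTA1 replicate 2 (limma adjusted p = 0.013 and 0.0017), as did Vegfb between the TAZ groups (0.00155 and 0.0049). In TAZ-CAMTA1 against control, Flt1 was at 0.057 with the GENCODE table, 0.21 with quality weights and -0.37 to 0.23 over left-out libraries, and Kdr at 0.03 with quality weights and -0.663 to 0.046 over left-out libraries (log2). In TAZ-CAMTA1 against TAZ4A, Vegfa was at 0.001 with quantile normalization, 0.12 with quality weights and -0.094 to 0.119 over left-out libraries, and Vegfb at -0.02 with TPM, -0.26 with quality weights and -0.24 to 0.29. For Nrp1 the value was -0.021 with CPM rescaled to the same sum, -0.10 with TPM, -0.01 with the GENCODE table and -0.14 to 0.25 over left-out libraries. Kdr ranged from -0.04 to 0.67 and Nrp2 from -0.08 to 0.51; without control replicate 1 and TAZ-CAMTA1 replicate 3 together Kdr was at -0.025, Nrp1 at -0.14 and Nrp2 at -0.08. The Vegfa share in TAZ4A against control ran from -9.45 to 0.85 percentage points over left-out libraries and was 0.85 without that pair. For these reversals the cause was not tested. The replicate numbers were not taken to pair the samples, since not every same-numbered pair of libraries correlated above 0.1 in its deviations from the group means: the pairs of number 1 were at -0.12 to 0.06, and those of numbers 2 and 3 at 0.14 to 0.52. As a hint from the data, 5 of 9 libraries correlated best with their own number in both other groups. With the replicate number as a block 4, 5 and 2 members were called, as without it. The count over all genes in that fit is not given here.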
